A study of Mus musculus with 91 samples.

Results

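The semaphorins, plexins and neuropilins are described here in single layer 5 (L5) pyramidal neurons of the mouse primary visual cortex (V1). They are 31 of the 34745 rows of the deposited table, 20 semaphorins, 9 plexins and 2 neuropilins, taken by symbol and followed through all 91 neurons. The neurons came from slices of wild-type C57 mice of both sexes, aged 8 to 12 weeks, and each was recorded with a patch pipette before its soma and nucleus were drawn up for sequencing (Patch-seq). The labels place 47 of them in the Pyr←LP group and 44 in the Pyr←ORBvl group, that is, the type driven by the lateral posterior thalamic nucleus (LP) and the type driven by the ventrolateral orbitofrontal cortex (ORBvl). For these neurons the authors read the type from the slope of the hyperpolarization-activated current with a classifier, so the group is a call from electrophysiology, made without the RNA. Neurons are numbered here within each type in the order of their accessions, and the number has no other meaning.

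Semaphorins are guidance proteins that steer growing axons and dendrites, mostly by repulsion, and act on synapses later in life. Class 3 semaphorins are secreted and bind neuropilins, which pass the signal on through A-type plexins. Sema3e is the exception in its class, since it binds the plexin Plxnd1 directly. Classes 4 to 7 are mostly held at the membrane and bind plexins without neuropilins. Plexins turn ligand binding into changes of the actin cytoskeleton and of adhesion.

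Sema3e is named in the rule for the members as seen mostly in Pyr←ORBvl neurons, so its difference between the types is described here without a test. Of the other members Nrp1 was called, higher in Pyr←ORBvl neurons, in the main test but not in every alternative, and it reached the filter of that test through Pyr←ORBvl neurons alone. The results turn on these genes, so the 250 bases before the start that the RefSeq promoter table gives for each are shown (GRCm38.p6). Capitals mark the GC box, GGGCGG or its reverse complement. The window of Sema3e is chr5:14025026-14025275 and that of Nrp1 is chr8:128358823-128359072, both on the plus strand. The first lies outside any GENCODE gene. The start used for Nrp1 is not the first base of the gene, and its window overlaps no exon but falls in an intron of an Nrp1 transcript that starts further upstream.
Sema3e: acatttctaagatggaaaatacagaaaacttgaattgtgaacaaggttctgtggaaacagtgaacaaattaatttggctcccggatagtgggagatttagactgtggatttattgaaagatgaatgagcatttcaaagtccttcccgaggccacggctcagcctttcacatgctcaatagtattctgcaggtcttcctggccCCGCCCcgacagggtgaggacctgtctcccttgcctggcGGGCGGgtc
Nrp1: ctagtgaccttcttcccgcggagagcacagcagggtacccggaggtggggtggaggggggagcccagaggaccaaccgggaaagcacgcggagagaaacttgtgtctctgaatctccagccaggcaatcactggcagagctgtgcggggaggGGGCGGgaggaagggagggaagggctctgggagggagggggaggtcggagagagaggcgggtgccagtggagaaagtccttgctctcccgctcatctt
The Sema3e window held 2 GC boxes, which began 48 and 9 bases before the start, and the Nrp1 window held 1, which began 98 bases before it. A GC box on either strand stood in 32.7% of the 32851 RefSeq promoter windows of that length. Neither window held TATAAA (12.4% of windows), CACGTG (6.02%) or CCAAT (33.8%) on either strand. These matches describe the letters only.

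Total counts ranged from 2410 to 1948982 per neuron (median 423999), and 72 neurons had at least 100000 counts. A median of 3241 genes had a count in Pyr←LP neurons and 3980.5 in Pyr←ORBvl neurons. Pyr←ORBvl neurons 5 and 11 had near-identical profiles (r = 0.993 on log2(CPM + 1), where CPM is counts per 1000000 counts of a neuron, against at most 0.717 for any other pair). The labels list them as separate neurons and they were kept apart. Both exceeded the study's limit for GABAergic markers. Their counts differed by more than counting noise (chi-square per degree of freedom 3.36), a test that does not tell 2 libraries of the same neuron from 2 neurons. Fold changes of tested members with counts in both are also given with the pair averaged. The neuronal gene Snap25 had counts in all 91 neurons. Both types also carried RNA of other cells, with at least 1 microglial marker in 41 of 47 Pyr←LP and 42 of 44 Pyr←ORBvl neurons and at least 1 oligodendrocyte marker in 45 and 44. Markers of GABAergic neurons had counts in 12 and 13 neurons and endothelial markers in 3 and 1. The list of L5 pyramidal tract (PT) markers, Fezf2, Bcl11b, Fam84b, Npr3 and Crym, summed to a median of 24.9 CPM (range 0 to 1672) in Pyr←LP and 408 CPM (range 0 to 1571) in Pyr←ORBvl neurons, and all 5 of its genes were seen in both types. Of genes known from intratelencephalic (IT) neurons, Rorb had counts in 23 Pyr←LP and 11 Pyr←ORBvl neurons, Deptor in 15 and 6, Tcerg1l in 6 and 5 and Etv1 in 16 and 25. The labels name no mouse, so neurons were the replicates, and a p-value here measures the spread between neurons, some of which share a mouse.

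The members were sparse. Of the 2821 values that 31 genes in 91 neurons give, 276 were above 0 (9.78%). A Pyr←LP neuron had counts of 2.64 ± 2.37 members (mean ± SD, n = 47, median 2, highest 13) and a Pyr←ORBvl neuron of 3.45 ± 2.55 (n = 44, median 4, highest 9). No member was seen in 6 Pyr←LP and 5 Pyr←ORBvl neurons. The number of members seen in a neuron went with its number of detected genes (Pearson r = 0.71, Spearman rho = 0.65 over 91 neurons, given as a description since both counts come from the same library). The neuron with 13 members was Pyr←LP neuron 34, which had the most detected genes, 11013, and exceeded the study's limit for GABAergic markers. Together the 31 genes took 0.0232% of all Pyr←LP counts and 0.0663% of all Pyr←ORBvl counts.

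**Figure D1:**
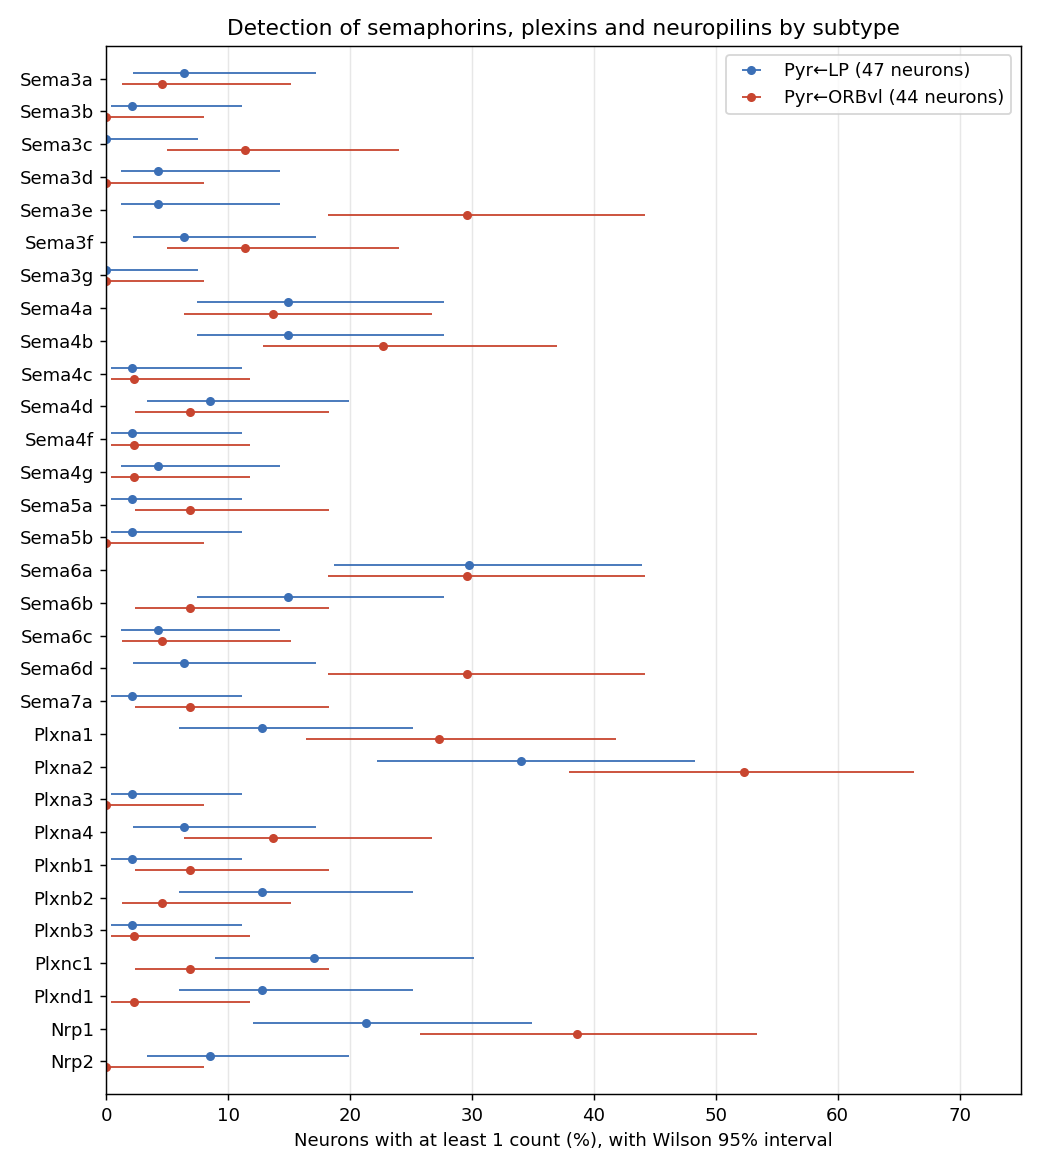
Share of neurons with at least 1 count (x axis, percent) of each of the 31 members (y axis) in 47 Pyr←LP (blue) and 44 Pyr←ORBvl (red) neurons, with Wilson 95% intervals as bars. The points lie furthest apart for Sema3e (4.26% and 29.5%) and Sema6d (6.38% and 29.5%), and Plxna2 is the member seen in most neurons of either type.

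Of the 31 members, Sema3g had no count in any neuron, and 0 of 91 neurons allows a share of up to 3.3% with a count (3 counts of the total, where the other bounds given here are Wilson bounds). A further 15 members had counts in 1 to 5 neurons, 8 in 6 to 13 neurons and 7 in 15 or more. Plxna2 was seen most widely, in 39 neurons, followed by Sema6a and Nrp1 in 27 each, Plxna1 in 18, Sema4b in 17, Sema6d in 16 and Sema3e in 15. Per gene length the order was different. Mean FPKM (counts scaled to gene length and to the total of the neuron) over all neurons was 12.5 for Nrp1, 3.93 for Plxna1, 3.46 for Sema4a, 2.78 for Sema3e and 2.42 for Plxna2, and below that for every other member. The SD among neurons of 1 type exceeded the mean for each of these 5 genes in both types, so these neighbours in the order do not differ beyond their spread. The order was not the same within each type. In Pyr←LP neurons mean FPKM was 4.00 for Plxnc1, 3.17 for Nrp1, 3.04 for Sema4a, 2.17 for Plxnb2 and 2.02 for Plxna1, and Sema3e was at 0.00458. In Pyr←ORBvl neurons it was 22.4 for Nrp1, 5.98 for Plxna1, 5.75 for Sema3e, 3.91 for Sema4a and 3.40 for Plxna2, and the SD again exceeded each of these means. Of the summed Pyr←LP CPM, 1 neuron held 42.8% for Plxnc1, 44.7% for Nrp1, 25.8% for Sema4a, 58.0% for Plxnb2 and 79.5% for Plxna1.

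Only 8 members reached 5 counts in at least 10 neurons, the filter of the test: Sema3e, Sema4a, Sema4b, Sema6a, Sema6d, Plxna1, Plxna2 and Nrp1. A gene was called at a Benjamini-Hochberg adjusted p under 0.05 with edgeR's quasi-likelihood test over all genes that passed the filter, together with a fold change above 2. Of the 7 members tested beside Sema3e, 1 was called, Nrp1, higher in Pyr←ORBvl neurons, against 130 of all 8267 genes tested (1.57%) and 88 genes called higher in Pyr←ORBvl (1.06%). Nrp1, Sema6a and Sema6d had at least 5 counts in 14, 11 and 10 Pyr←ORBvl neurons, against 4, 7 and 1 Pyr←LP neurons. They thus reached 10 neurons through Pyr←ORBvl alone, so these counts of members are a description. With another normalization of the counts (TMMwsp, 2.87% of all genes called) the split over all genes was 114 higher in Pyr←ORBvl and 123 in Pyr←LP, and Nrp1 was again called. DESeq2 and limma on log2(CPM + 1) called none of these 7, against 0.351% and 0.774% of all genes, although DESeq2 gave Sema4b and Sema6d no adjusted p. In Fisher's exact test of the share of neurons with a count, 22 of all genes tested (0.266%) passed after adjustment and 660 (7.98%) had an unadjusted p under 0.05. The share was higher in Pyr←ORBvl for 66.4% of all genes tested, and 6.59% had an unadjusted p under 0.05 in that direction. Of the same 7 members none passed after adjustment, and 1, Sema6d, had an unadjusted p under 0.05. The log2 fold change (Pyr←ORBvl over Pyr←LP) was above 0 for 6 of the 7 members tested beside Sema3e, with a median of 1.38. It was above 0 for 4611 of all 8267 genes tested (55.8%), with a median of 0.12. Nrp1, Sema6a and Sema6d, which reached the filter through Pyr←ORBvl neurons alone, are among the 6 members. Nothing is read from this direction. The 23 other members did not reach the filter and have no test of their level.

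Sema3e was seen mostly in Pyr←ORBvl neurons. This secreted class 3 semaphorin (chromosome 5, 14025276 to 14256689, plus strand) had a count in 13 of 44 Pyr←ORBvl neurons (29.5%, Wilson 95% interval 18.2 to 44.2%) and in 2 of 47 Pyr←LP neurons (4.26%, 1.17 to 14.2%). The 2 Pyr←LP neurons held 1 and 2 counts (neurons 39 and 45), although their totals were 1010847 and 1316128. In the 13 Pyr←ORBvl neurons the level ran from 4.01 to 587 CPM with a median of 206 CPM. The highest were neuron 37 with 575 counts, neuron 35 with 431, neuron 42 with 371 and neuron 6 with 369, and then came neurons 25 with 127, 7 with 108, 8 with 88 and 4 with 73. Neurons 21, 34, 43, 12 and 22 had 34, 19, 16, 6 and 1 counts. So 12 Pyr←ORBvl neurons had at least 5 counts and no Pyr←LP neuron had, while the other 31 Pyr←ORBvl neurons had none, and at 0 the types overlapped. The highest neuron held 19.9% of the summed CPM.

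Mean Sema3e was 67.1 ± 140 CPM in Pyr←ORBvl and 0.0534 ± 0.262 CPM in Pyr←LP neurons (SD, n = 44 and 47). The fitted log2 fold change was 7.85 (SE 1.02, edgeR), a size that depends on the prior count because the Pyr←LP neurons hold 3 counts in all. With the prefix of the neuron names, treated as a batch below, as a term of the fit it was 3.66 (SE 1.08). Summed over neurons, Sema3e took 2218 of 23674612 counts in Pyr←ORBvl and 3 of 24065690 in Pyr←LP, a ratio of 752. Its exact 95% interval, 257 to 3647, covers counting error only. That interval leaves out the spread between neurons and the choice of Sema3e by the rule, so it is no test. The difference of log2(CPM + 1) was 2.04 (SE 0.50, limma). The gene passed the filter only through Pyr←ORBvl neurons. Without the neurons of either of 2 name prefixes, 822 or 914, each of which holds 3 of the 12 neurons with at least 5 counts, it fell below the filter. Prefixes that differ only by a hyphen were taken as 1, and as spelled the 3 neurons of 822 fall into 2 of 8-22 and 1 of 822, so that leaving out either spelling leaves 10 or 11 neurons and the gene reaches the filter.

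**Figure D2:**
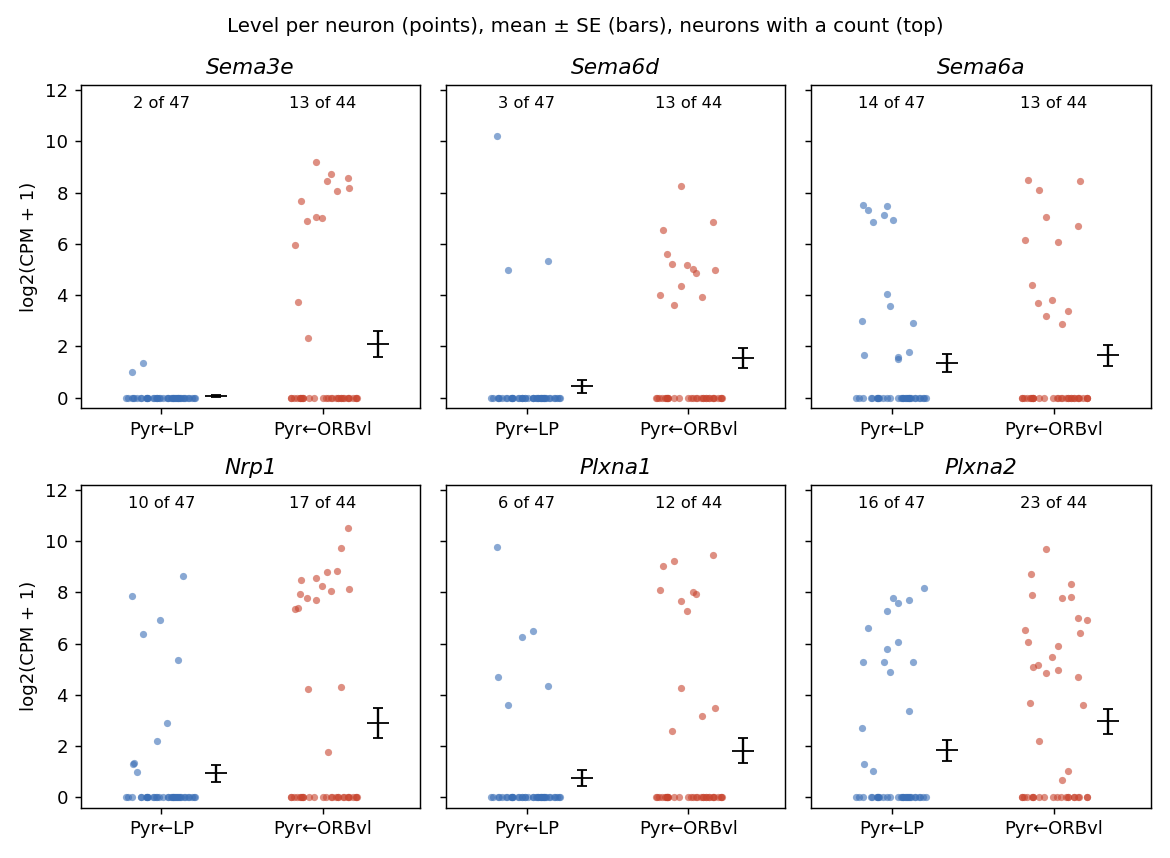
Level per neuron as log2(CPM + 1) (y axis) of Sema3e, Sema6d, Sema6a, Nrp1, Plxna1 and Plxna2 in 47 Pyr←LP (blue) and 44 Pyr←ORBvl (red) neurons. Points are neurons, bars give the mean ± SE, and the top line counts neurons with the gene, from 2 and 13 for Sema3e to 16 and 23 for Plxna2.

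After each of the 72 deeper neurons had been thinned to 100000 counts, Sema3e was seen in 0 of 38 Pyr←LP and 12 of 34 Pyr←ORBvl neurons. The name of each neuron begins with a prefix, treated here as a batch because neurons of 1 name series share it. Sema3e was seen in Pyr←ORBvl neurons of 8 prefixes. Of the 14 prefixes with both types (13 if hyphens are kept), its mean was higher in Pyr←ORBvl in 7 and in Pyr←LP in 1, and 6 had no Sema3e.

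Of the PT markers, Npr3 was seen in 10 of the 13 Pyr←ORBvl neurons with Sema3e and in 6 of the other 31, Fezf2 in 11 and 21, Crym in 9 and 17, Bcl11b in 7 and 12 and Fam84b in 5 and 9. Of the genes known from IT neurons, Etv1 was seen in 10 of the 13 and 15 of the 31, Rorb in 3 and 8, Deptor in 1 and 5 and Tcerg1l in 0 and 5. Slc17a7, the vesicular glutamate transporter, was seen in 13 and 23. A GABAergic marker was seen in 3 of the 13, none of them Slc32a1 or Gad2, and an OPC marker in none. Oligodendrocyte markers were seen in all 13 and all 31 (median 1567 and 1710 CPM) and microglial markers in 12 and 30 (403 and 357 CPM). These counts describe the neurons, and their part in the Sema3e difference was not tested.

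Among the other class 3 ligands, Sema3c was seen in Pyr←ORBvl neurons and in no Pyr←LP neuron. It lies on the same chromosome as Sema3e (chromosome 5, 17574816 to 17730268). It had counts in 5 of 44 Pyr←ORBvl neurons (11.4%, Wilson 95% interval 4.95 to 24%) and in 0 of 47 Pyr←LP neurons (upper Wilson bound 7.56%; Fisher's exact p = 0.0234, two-sided and unadjusted). Neuron 31 had 1092 counts, neurons 28, 42, 38 and 8 had 27, 17, 4 and 3. That 1 neuron held 87.2% of the summed CPM, and only 3 neurons reached 5 counts, so the level was not tested. Of the 5 neurons, 2 also had Sema3e.

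The remaining class 3 members were seen in few neurons. Sema3f had counts in 3 Pyr←LP and 5 Pyr←ORBvl neurons, of which 2 are the near-identical pair (78 and 79 counts). Sema3a was seen in 3 and 2 neurons, Sema3d in 2 and 0 and Sema3b in 1 and 0. Counts of any class 3 member, Sema3e and Sema3c included, were present in 9 of 47 Pyr←LP and 20 of 44 Pyr←ORBvl neurons, and their summed mean was 1.52 ± 6.26 and 10.4 ± 20.8 FPKM (SD). Of the Pyr←ORBvl mean, 5.75 FPKM was Sema3e and 3.11 FPKM was Sema3c. The Pyr←LP mean leaned on neuron 27, which had 16.3 FPKM of Sema3a and 15.1 FPKM of Sema3f.

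Nrp1 was called in the main test. This co-receptor of class 3 semaphorins, which also binds VEGF (chromosome 8, 128358591 to 128505476, plus strand), had counts in 17 of 44 Pyr←ORBvl neurons (38.6%, Wilson 95% interval 25.7 to 53.4%) and 10 of 47 Pyr←LP neurons (21.3%, 12 to 34.9%). In Pyr←LP, neurons 5, 34, 6, 30 and 45 had 64, 50, 15, 7 and 2 counts, and neurons 15, 17, 19, 24 and 32 had 1 count each. In Pyr←ORBvl, neuron 4 had 1749 counts, neuron 9 had 494, neuron 23 had 378, neuron 6 had 299, neuron 30 had 296, neuron 11 had 295 and neuron 5 had 204. Neurons 3, 25, 8, 22, 12 and 38 had 168, 156, 113, 110, 107 and 72 counts, and neurons 24, 10, 39 and 41 had 12, 2, 2 and 1. Thus 14 Pyr←ORBvl and 4 Pyr←LP neurons had at least 5 counts, and the ranges overlapped. Where Nrp1 was seen, its median was 266 CPM in Pyr←ORBvl and 23.2 CPM in Pyr←LP neurons.

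Mean Nrp1 was 132 ± 272 CPM in Pyr←ORBvl and 18.7 ± 68.2 CPM in Pyr←LP neurons (SD, n = 44 and 47). Pyr←LP neuron 15, with 1 count at a total of 2545, held 44.7% of the Pyr←LP sum, and without it that mean was 10.6 CPM. The log2 fold change was 3.84 (SE 0.94, adjusted p = 0.00912, edgeR). Nrp1 reached the filter through Pyr←ORBvl neurons alone, so this p and those that follow are a description. DESeq2 gave 3.63 (SE 1.12, adjusted p = 0.127) and limma on log2(CPM + 1) a difference of 1.97 (SE 0.65, adjusted p = 0.139), and neither called it. With the prefix as a block in edgeR it was 3.78 (SE 1.34, adjusted p = 0.12), and it was not called either. Its share of neurons did not pass Fisher's exact test (difference of 17.4 percentage points, p = 0.107 unadjusted, two-sided). At 5 counts the shares were 4 of 47 Pyr←LP and 14 of 44 Pyr←ORBvl neurons (23.3 points, Fisher's exact p = 0.00767, adjusted p = 0.339). After thinning to 100000 counts they were 4 of 38 and 14 of 34 (30.7 points, Fisher's exact p = 0.00546, adjusted p = 0.314), which did not pass after adjustment either. In 6 of the 14 prefixes with both types the mean was higher in Pyr←ORBvl, in 3 it was higher in Pyr←LP, and 5 had no Nrp1.

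The neuron with the most Nrp1, Pyr←ORBvl neuron 4, was also the only Pyr←ORBvl neuron with an endothelial marker (194 CPM for the summed list, with Cldn5, Flt1 and Tek at 0 in all 44), a cell type that expresses Nrp1. Without the prefix of that neuron, Nrp1 had a log2 fold change of 3.38 (SE 0.95, adjusted p = 0.0438, edgeR). Without that neuron alone the mean Nrp1 of the Pyr←ORBvl neurons was 101 CPM. Both neurons of the near-identical pair had Nrp1, and with the pair averaged the fold change was 3.81 (SE 0.94, adjusted p = 0.0116). A microglial marker was seen in 16 of the 17 Pyr←ORBvl neurons with Nrp1 and 26 of the other 27 (median 520 and 349 CPM). The part of endothelial or microglial RNA in the Nrp1 difference was not tested.

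**Figure D3:**
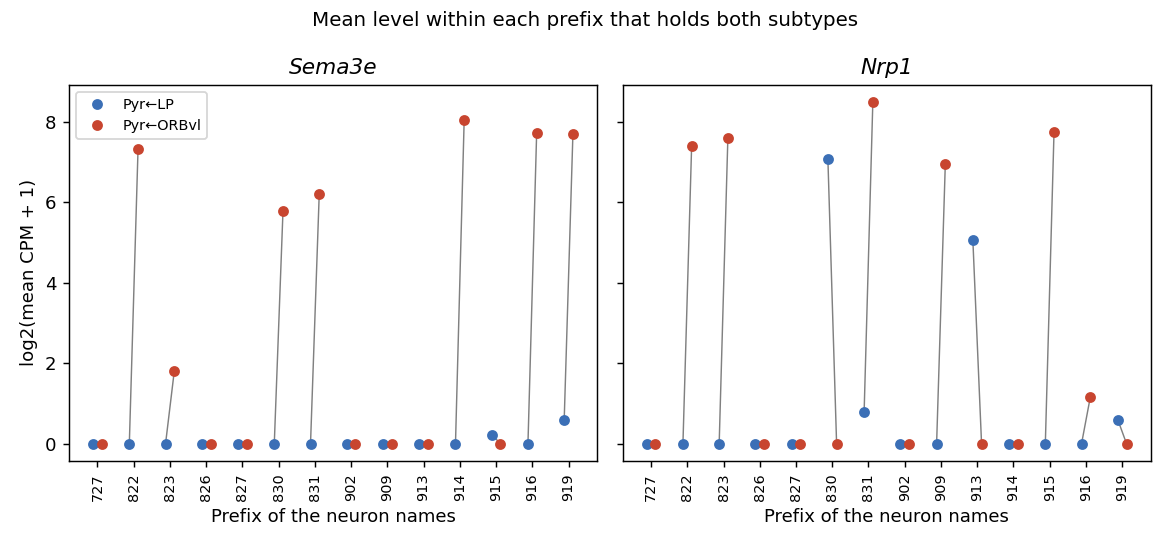
Mean level as log2(mean CPM + 1) (y axis) of Sema3e and Nrp1 in Pyr←LP (blue) and Pyr←ORBvl (red) neurons of each of the 14 name prefixes that hold both types (x axis), with a line joining the types. The red point is higher in 7 prefixes for Sema3e and in 6 for Nrp1, and the blue point in 1 and 3.

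The second neuropilin, Nrp2, was seen at low level in 4 Pyr←LP neurons (14, 6, 2 and 1 counts) and in 0 of 44 Pyr←ORBvl neurons, with an upper Wilson bound of 8.03% (Fisher's exact p = 0.118, two-sided). Sema3e's own receptor Plxnd1 had counts in 6 Pyr←LP neurons, from 1 to 60 counts, and in 1 Pyr←ORBvl neuron with 6 counts (12.8% and 2.27%, Fisher's exact p = 0.112, two-sided). Sema3e and Plxnd1 were seen together in 1 neuron of 91. Both receptors were below the filter.

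Plxna2, the receptor of Sema6a and a partner of Nrp1, was seen in 23 of 44 Pyr←ORBvl (52.3%) and 16 of 47 Pyr←LP neurons (34%). Where it was seen the counts ran from 1 to 420 (median 59.1 CPM) in Pyr←ORBvl and from 1 to 313 (median 46.5 CPM) in Pyr←LP neurons, and the ranges overlapped throughout. Its mean was 68.5 ± 150 and 30.4 ± 67.6 CPM (SD), and the log2 fold change of 1.38 (SE 0.86, adjusted p = 0.704, edgeR) did not pass. With the near-identical pair averaged it was 1.39 (SE 0.86). Plxna1, which takes part in the response to Sema3a and Sema6d, was seen in 12 and 6 neurons at a mean of 68.1 ± 166 and 23.0 ± 126 CPM (SD). A single Pyr←LP neuron, neuron 7 with 811 counts, held 79.5% of the summed Pyr←LP CPM, and without it that mean was 4.81 CPM. The log2 fold change of Plxna1 was 1.52 (SE 0.93, adjusted p = 0.683, edgeR), and without the prefix of that neuron, 822, it was 3.60 (SE 1.00, adjusted p = 0.0511). After thinning to 100000 counts Plxna1 was seen in 6 of 38 Pyr←LP and 6 of 34 Pyr←ORBvl neurons.

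Nrp1 signals through A plexins, and most Pyr←ORBvl neurons with Nrp1 also had a count of one. Of the 17 Pyr←ORBvl neurons with Nrp1, 13 had Plxna2, 5 had Plxna1 and 15 had at least 1 A plexin, whereas 30 of all 44 had an A plexin. Of the 10 Pyr←LP neurons with Nrp1, 1 had Plxna2, 1 had Plxna1 and 2 had at least 1 A plexin, whereas 21 of all 47 had one. Of the 10 Pyr←LP neurons, 5 rest on a single Nrp1 count, and both neurons of the near-identical pair are among the 13 Pyr←ORBvl neurons with Plxna2. This comparison was picked after the values were seen and was not tested. Sema3e and Nrp1 were seen together in 6 of 44 Pyr←ORBvl and 1 of 47 Pyr←LP neurons.

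The other plexins were seen more thinly. Plxna4 had counts in 3 Pyr←LP and 6 Pyr←ORBvl neurons and Plxna3 in 1 and 0. Plxnc1, the receptor of Sema7a, was seen in 8 and 3 neurons at a mean of 33.1 ± 112 and 4.83 ± 20.4 CPM (SD), with 480 counts in Pyr←LP neuron 1 as the highest. Without the highest neuron of each type these means were 19.3 and 2.11 CPM. Plxnb2 was seen in 6 and 2 neurons, Plxnb1, the receptor of Sema4d, in 1 and 3, and Plxnb3 in 1 and 1. Neurons with Plxnc1 or Plxnd1 were 12 of 47 Pyr←LP and 4 of 44 Pyr←ORBvl. None of these 6 plexins reached the filter.

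Among the membrane-bound ligands Sema6d was seen in more Pyr←ORBvl than Pyr←LP neurons, a difference that did not pass after adjustment, and its level did not pass either. This class 6 semaphorin (chromosome 2, 124089943 to 124667789) had counts in 13 of 44 Pyr←ORBvl (29.5%, Wilson 95% interval 18.2 to 44.2%) and 3 of 47 Pyr←LP neurons (6.38%, 2.19 to 17.2%). In Pyr←ORBvl, neurons 37, 20, 8 and 30 had 297, 156, 78 and 44 counts, and the other 9 had 2 to 21. In Pyr←LP, neurons 21, 20 and 15 had 24, 4 and 3. Fisher's exact p for the share was 0.00513 unadjusted (two-sided) and 0.294 adjusted over all genes. The log2 fold change was 1.80 (SE 0.96, adjusted p = 0.57, edgeR).

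The means of Sema6d pointed the other way, 26.6 ± 172 CPM in Pyr←LP and 17.7 ± 50.1 CPM in Pyr←ORBvl (SD), because Pyr←LP neuron 15 turned 3 counts into 1179 CPM at a total of 2545 counts. Without its prefix, 830, the log2 fold change was 3.32 (SE 0.89, adjusted p = 0.0276, edgeR), and over the 72 neurons of at least 100000 counts it was 3.56 (SE 1.01, adjusted p = 0.0648). Since Sema6d reached the filter only through its 10 Pyr←ORBvl neurons with at least 5 counts, nothing is read from these values. Both neurons of the near-identical pair had Sema6d, with 15 and 21 counts, and with the pair averaged the log2 fold change was 1.74 (adjusted p = 0.603, edgeR). With the study's exclusion rule, which leaves out both neurons of the pair, Sema6d was below the filter. Sema6d and Plxna1 were seen together in 6 Pyr←ORBvl neurons and in 0 Pyr←LP neurons.

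**Figure D4:**
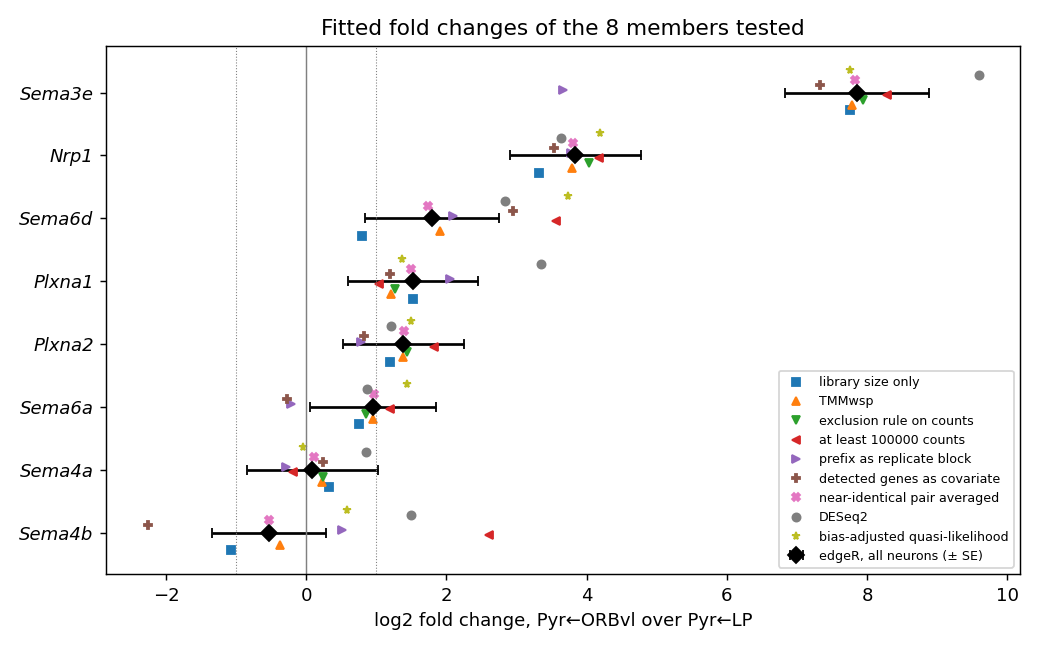
Fitted log2 fold change, Pyr←ORBvl over Pyr←LP (x axis), of the 8 members tested (y axis), with black diamonds and SE bars for edgeR over all neurons and coloured symbols for other settings, where the gene could be tested. The diamonds of Sema3e and Nrp1 lie at 7.85 and 3.84 (dotted line at 1), and symbols of Sema4a, Sema4b and Sema6a fall on both sides of 0.

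Sema6a, a ligand of Plxna2 and Plxna4, was seen in similar shares of both types, 14 of 47 Pyr←LP (29.8%) and 13 of 44 Pyr←ORBvl neurons (29.5%). Its counts ran from 1 to 42 in Pyr←LP and from 1 to 471 in Pyr←ORBvl neurons, with means of 20.1 ± 50.9 and 32.5 ± 86.6 CPM (SD). The log2 fold change of 0.96 (SE 0.90, adjusted p = 0.911, edgeR) did not pass. With the near-identical pair averaged it was 0.97 (SE 0.90). Sema6a and Plxna2 were seen in the same neuron in 6 of 47 and 11 of 44. Sema6b was seen in 7 Pyr←LP and 3 Pyr←ORBvl neurons and Sema6c in 2 of each.

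Of the 6 class 4 members, Sema4a and Sema4b were tested, and neither was called. Sema4a had counts in 7 Pyr←LP and 6 Pyr←ORBvl neurons, from 4 to 310 and from 7 to 407, and a log2 fold change of 0.09 (SE 0.93, adjusted p = 0.997, edgeR). Sema4b had counts in 7 and 10 neurons and a log2 fold change of -0.53 (SE 0.81, adjusted p = 0.979). Its sign rests on Pyr←LP neuron 36, which had 46 of the 77 Pyr←LP counts, and without the prefix of that neuron, 915, it was 2.35 (SE 0.76, adjusted p = 0.0862). With the near-identical pair averaged it was -0.54 (SE 0.81). After thinning to 100000 counts Sema4b was seen in 1 of 38 Pyr←LP and 7 of 34 Pyr←ORBvl neurons (18 percentage points against 7.83 before thinning, Fisher's exact p = 0.0227, unadjusted, since it was then below the filter). Sema4d was seen in 4 and 3 neurons, Sema4g in 2 and 1, and Sema4c and Sema4f in 1 of each type. Sema5a was seen in 1 Pyr←LP and 3 Pyr←ORBvl neurons, 2 of which are the near-identical pair. With the study's exclusion rule it was seen in 0 of 44 Pyr←LP and 0 of 39 Pyr←ORBvl neurons. Sema5b was seen in 1 and 0 neurons, and Sema7a in 1 and 3.

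Around the members, 43 genes that act with them were listed, among them other receptors, adhesion partners, and kinases and cytoskeletal proteins through which plexins work. Of these, 31 reached the filter and 0 were called in either direction (edgeR). Their log2 fold changes were above 0 in 19 of 31 with a median of 0.23, and 1 had an unadjusted p under 0.05, against 790 of 8267 genes (9.56%). That gene was Farp1, an exchange factor that binds A plexins, with 2.35 (SE 0.95, adjusted p = 0.289). With DESeq2 and with limma on log2(CPM + 1) 0 of the list were called as well, and 3 and 1 had an unadjusted p under 0.05. The genes of the list with a count in most neurons were the following. Cfl1, the actin-severing cofilin, had counts in 46 Pyr←LP and 41 Pyr←ORBvl neurons (898 ± 552 and 743 ± 496 CPM), Pak1, a kinase downstream of Rac, in 44 and 41 (537 ± 568 and 443 ± 524 CPM), Rac1 in 39 and 36 (463 ± 843 and 445 ± 475 CPM) and Nrcam, a partner of neuropilins, in 34 and 36 (439 ± 663 and 209 ± 334 CPM, SD). Their log2 fold changes were -0.23 (SE 0.41) for Cfl1, -0.23 (SE 0.50) for Pak1, 0.23 (SE 0.57) for Rac1 and -1.16 (SE 0.63) for Nrcam, and none passed. Vegfa, another ligand of Nrp1, was seen in 19 and 14 neurons.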

How the data were processed

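For Patch-seq, mRNA of single neurons was amplified with a Smart-seq2-based kit without molecular identifiers or strand marks, and sequenced. The authors aligned reads to GRCm38 (mm10) with STAR 2.5.3, removed PCR duplicates and deposited unnormalized counts of unique reads per RefSeq gene. The authors also deposited FPKM values, which equalled the count divided by a fixed gene length and the neuron's total within 0.0813%. The 31 members, the gene lists and the tests were chosen with earlier results of these data known. Named in full are the members called, those whose share differed at an unadjusted Fisher's exact p under 0.05 and the 6 seen in most neurons, and of the partner list the genes called and the 4 seen in most neurons (Farp1, Vegfa and the other members were added after their values were seen).

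The main test was the quasi-likelihood F test of edgeR 4.0.16 (R 4.3.3), robust and TMM-normalized, in its legacy form. That form was chosen after tests on simulated data, where the newer form called more unchanged genes. Genes needed 5 counts in 10 neurons. DESeq2 1.42.0, the authors' tool, and limma 3.58.1 were alternatives. Shares of neurons were compared with Fisher's exact test (scipy 1.17.1), adjusted over all genes tested. Intervals cover counting or sampling error only. Other alternatives covered normalization, filter, pseudocount (1 or 10), the study's exclusion rule (a total below 500 counts, or a sum of log2(count + 1) over Slc32a1, Gad1 and Gad2 above 7), depth, covariates, sums per prefix, and each prefix left out (the part of the name before the neuron number, hyphens ignored). Deviations of the types within a prefix correlated at -0.04 to 0.14, above 0.1 in 3 of 14 prefixes, so the prefix was not used as a pairing. Positions are those of RefSeq on GRCm38.p6. All 31 members matched it by symbol. The reads, the recordings and the study's own selection of neurons were not used here. A further list of layer 5 markers is not reported here as a whole.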

Additional observations from a re-analysis of the deposited data

How the results depend on the processing

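Sema3e, whose pattern the rule for the members names, is given by its fitted log2 fold change alone, 1.11 to 9.59 in the 15 alternatives that leave out no prefix and kept it in the fit, and 7.66 to 8.02 in 15 fits without a prefix. In the fits without 822 and 914 it was below the filter. Nrp1 was positive in all 15 of its own alternatives (1.26 to 4.27) and was called in 8, and it was called in all 17 fits without a prefix (3.38 to 5.06). Since Nrp1 reached the main filter through Pyr←ORBvl neurons alone, these calls are a description. Nrp1 was not called with DESeq2 (3.63), limma on log2(CPM + 1) (1.97), on log2(FPKM + 1) (1.43) or on log2(CPM + 10) (1.26), or by limma with the exclusion rule (1.95, chosen after seeing the data). The cause was not tested. The number of members called was 1 in these 5 settings, and since that 1 was Sema3e, no other member was called. It was 10 with Sema3e and 9 beside it without a gene filter, where 27.5% of all genes were called, and 0 with filterByExpr, which none of the members passed. Leaving out prefixes gave 1 to 3 members with Sema3e, and beside it Nrp1 and, without 830, Sema6d.

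Over all genes, 130 calls became 29 with DESeq2, 64, 48 and 55 with limma on log2(CPM + 1), log2(FPKM + 1) and log2(CPM + 10), 237 with TMMwsp, 5127 without a filter, 1 with filterByExpr, 63 in neurons of at least 100000 counts, 201 with detected genes as covariate and 56 to 140 without a prefix. Settings chosen after seeing the data gave 603 (bias-adjusted quasi-likelihood, which also called Sema6d) and 62 (exclusion rule with limma). Of the 43 partner genes, 6 were called without a filter, 1 with the bias-adjusted fit and 0 to 1 without a prefix. The difference in the share of neurons with Sema3e, likewise a description, was 27.3 percentage points at 5 counts, 35.3 after thinning and between 23.1 and 30.1 without 1 of 15 prefixes. That of Nrp1 was 17.4 points, 23.3 at 5 counts and 30.7 after thinning, and none passed after adjustment. Without prefixes 822 and 914, where Sema3e was below the filter, its difference was 20.6 and 20.7.

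The prefix as a replicate block, a pairing that the deviations do not bear out, did not leave Nrp1 called (3.78, adjusted p = 0.12, edgeR), put Sema3e at 3.66, and called 174 genes and 1 partner gene, and of the members 1, Sema3e, which says nothing beyond its selection. Sums per prefix with the block called 3 genes and 0 members, and Sema3e and Nrp1 did not pass their filter. With 5 counts in 5 sums, chosen after seeing the data, 1 gene and 0 members were called (Sema3e 4.91, Nrp1 4.27 with an adjusted p of 1, edgeR).

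Of the 6 members tested and not called, Sema4a, Sema4b and Sema6a changed sign. Sema4a was at -0.18 in neurons of at least 100000 counts, -0.29 with the replicate block, -0.039 with the bias-adjusted fit and -0.31 to 0.59 without a prefix. Sema4b was at 1.495 with DESeq2, 0.38, 0.15 and 0.14 with the 3 limma settings, 2.60 at 100000 counts, 0.51 with the block, 0.58 with the bias-adjusted fit, 1.13 on sums and -0.89 to 2.35 without a prefix. Sema6a was at -0.22 with the block, -0.27 with detected genes as covariate, -0.21 and -0.23 on sums and -0.049 with the exclusion rule and limma. Differences in the share of neurons changed sign for Sema4a (0.87 points at 5 counts, 1.75 with the exclusion rule, -3.59 to 1.67 without a prefix) and Sema6a (10.1 at 5 counts, -3.61 to 3.68 without a prefix).

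Depth limits the 23 members below the filter: most of their values are 0, and a count of 0 in a neuron of few counts does not show that the gene was absent.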
